A study of Homo sapiens with 2 samples.

Results

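A set of 10 genes that report on or restrain the RAS–ERK pathway was followed across 2 spatial transcriptomics sections of MDA-MB-231 tumors. They are the dual-specificity phosphatases DUSP1, DUSP4, DUSP5 and DUSP6, the Sprouty-type inhibitors SPRY2, SPRY4 and SPRED1, and the pathway-responsive genes PHLDA1, ETV4 and ETV5. The members were listed by symbol, and all 10 were found once each among the 36601 features of both matrices. The question put to them was whether DUSP1 runs with the ERK-output genes along the hypoxia level and the depth of the tissue in this RAS-mutant line.

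MDA-MB-231 is an established line of human breast cancer cells that lack the estrogen and progesterone receptors and HER2 amplification, and both tumors carried a hypoxia fate-mapping reporter, which switches the fluorescent protein of a cell that has met low oxygen. Both were untreated, were frozen 18 days after implantation and were cut at 10 µm for Visium, in which barcoded spots of an array each catch the RNA of the cells above them, often several at once. The sections, called tumor 1 and tumor 2 here, belong to a single group with n = 2, so no contrast between tumors was made. The labels name neither the host nor whether the tumors came from separate animals, so p-values cover these sections only. Each p-value and SE of an edgeR fit rests mainly on a spread shared over genes, since few residual degrees of freedom are left. An SE can therefore be smaller than the spread between the 2 tumors. All values are from 1 line, and the native fluorescence images and any reporter readout were not used here.

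ERK, the last kinase of the RAS–RAF–MEK–ERK cascade, switches on genes that then restrain it. DUSP4, DUSP5 and DUSP6 remove the activating phosphates of ERK, DUSP5 in the nucleus and DUSP6 in the cytoplasm, Sprouty and SPRED proteins act higher up, at receptors and RAS, and ETV4 and ETV5 are ETS-family transcription factors whose transcription follows ERK activity. DUSP1, also known as MKP-1, is an immediate early gene that acts in the nucleus on the stress kinases p38 and JNK as well as on ERK, and is induced by many stresses and by glucocorticoids as well as by growth factors. In a line with a mutant RAS gene the cascade is active without a ligand, and the feedback genes are transcribed as part of its output.

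Tumor 1 gave 2536 spots with a median of 23574 UMIs (unique molecular identifiers, each 1 captured RNA molecule) and tumor 2 gave 2841 spots with a median of 15895. The line's markers VIM, CD44, EGFR, AXL, MSN and CAV1 summed to 7565 and 7645 CPM (UMIs scaled to 1000000 per section or zone) in tumors 1 and 2. Of ESR1, PGR, ERBB2, EPCAM and CDH1, which the line expresses little or not at all, 3 of 5 lay under 1 CPM in each tumor and the highest, ERBB2, reached 26.2. Both sections had an area of few UMIs, 20.9% of the spots of tumor 1 and 29.2% of those of tumor 2, with medians of 4612 and 1440 UMIs. Across the 2 libraries 1627 spot barcodes were shared, since each array position has the same barcode on every slide. Each of the 10 members had at least 1000 UMIs in each section, from 1000 for SPRY2 in tumor 2 to 18056 for PHLDA1 in tumor 1. In tissue spots, a lower level can mean fewer cells of a kind or less RNA per cell, and these cannot be told apart.

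The promoters of DUSP1 and DUSP6 are shown because these phosphatases stand for the stress-responsive and the ERK-specific side of the group, and because the results turn on how their levels differ. DUSP1 lies on chromosome 5 from 172768096 to 172771195, DUSP6 on chromosome 12 from 89347235 to 89352501 and DUSP5 on chromosome 10 from 110497907 to 110511533 (GRCh38.p14). The lines below give, from RefSeq on GRCh38.p14, the 250 bases before the start of each gene on the minus strand, at chr5:172771196-172771445 for DUSP1 and at chr12:89352502-89352751 for DUSP6, read 5′ to 3′ in the direction of transcription. Capitals mark matches to the searched motifs on either strand.
DUSP1 promoter: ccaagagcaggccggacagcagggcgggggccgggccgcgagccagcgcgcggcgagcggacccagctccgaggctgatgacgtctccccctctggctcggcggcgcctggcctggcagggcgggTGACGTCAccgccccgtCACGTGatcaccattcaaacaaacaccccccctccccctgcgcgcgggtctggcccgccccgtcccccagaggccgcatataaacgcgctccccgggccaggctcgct
DUSP6 promoter: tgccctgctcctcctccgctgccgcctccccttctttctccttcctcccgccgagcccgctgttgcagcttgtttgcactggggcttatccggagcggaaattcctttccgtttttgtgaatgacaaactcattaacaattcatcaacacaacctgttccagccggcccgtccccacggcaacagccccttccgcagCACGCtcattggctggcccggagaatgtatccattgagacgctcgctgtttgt

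The 6 motifs were searched on both strands: the hypoxia response cores ACGTG and GCGTG, the cyclic AMP response element TGACGTCA, the AP-1 element TGANTCA, the serum response CArG box and the ETS site CCGGAAGT. The DUSP1 window held TGACGTCA 125 bases before the start, a match found in 1.65% of 35116 promoter windows of the same length. It also held ACGTG as 2 overlapping matches, 1 on each strand of the palindrome CACGTG, 108 and 107 bases before the start; 18.5% of windows hold this core. The DUSP6 window held GCGTG once, 53 bases before the start, as do 32.2% of windows, and none of the other motifs. Windows were listed for 6 of the 10 members, 8 windows in all, with 3 for SPRY2. Those of SPRY2, SPRY4, SPRED1 and PHLDA1 held none of the 6 motifs, which says only that these letters are not in these windows. In all 35116 windows, AP-1, CArG and ETS matches were found in 6.57%, 1.16% and 3.42%.

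A hypoxia score was made for each spot as the mean standardised level of 28 genes that low oxygen induces (VEGFA, CA9, NDRG1, SLC2A1 and others, no member among them), averaged with the adjacent spots. Within each tumor the 25% of spots with the highest score were set against the 25% with the lowest, 634 and 634 spots in tumor 1 and 710 and 710 in tumor 2. DUSP1, DUSP5 and DUSP6 were higher in the high-score zone, by 2.61-fold, 1.62-fold and 1.28-fold. None of the 10 members passed the test in the lower direction, and SPRY2, SPRY4, SPRED1, PHLDA1, DUSP4, ETV4 and ETV5 did not pass in either. UMIs were summed per tumor and zone and tested with edgeR's quasi-likelihood test with the tumor as a block, with Benjamini-Hochberg adjustment over 14223 genes and a threshold of 0.05.

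In tumor 1 the high-score zone held DUSP1 at 253 CPM (3345 UMIs) and the low-score zone at 126 CPM (2307 UMIs). The same zones of tumor 2 held it at 262 CPM (3060 UMIs) and 87.5 CPM (532 UMIs). The high-score zones of both sections lay within 10 CPM of each other and far above both low-score zones, so the zones did not overlap. The log2 difference was 1.38 ± 0.11 (SE, n = 2 tumors; edgeR adjusted p = 9.1e-06), 1.12 in tumor 1 and 1.68 in tumor 2. Among all genes tested, this difference lay at percentile 99.1.

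DUSP5, the nuclear ERK-specific phosphatase, stood at 134 against 89.0 CPM in tumor 1, and tumor 2 gave 136 against 90.5 CPM. The sections gave nearly the same pair of levels. Its log2 difference was 0.70 ± 0.08 (SE, n = 2; edgeR adjusted p = 0.00014), with 0.71 and 0.69 in the 2 tumors. DUSP6, its cytoplasmic counterpart and a standard readout of ERK activity, stood at 181 against 162 CPM in tumor 1, and tumor 2 gave 177 against 139 CPM. Its zones did not overlap either, but the gap was narrower, with a log2 difference of 0.36 ± 0.08 (SE, n = 2; edgeR adjusted p = 0.012). That call was lost with DESeq2 (adjusted p = 0.11), without the tumor block (adjusted p = 0.12) and in spots thinned to 1149 UMIs each, where the difference was 0.21 (edgeR adjusted p = 0.51). DUSP4, which acts on ERK and JNK in the nucleus, had 155 against 180 CPM in tumor 1 where tumor 2 had 160 against 176 CPM, with a log2 difference of -0.07 ± 0.08 (edgeR adjusted p = 0.60). In CPM the zones of DUSP4 did not overlap either, with the high-score zone lower, and the same held for SPRED1, ETV4 and ETV5. None of these was called, and how many of all genes separate in this way was not counted.

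The Sprouty-type inhibitors gave no call at this zone width. SPRY2, which restrains receptor signalling to RAS, differed by 0.32 ± 0.13 on the log2 scale (edgeR adjusted p = 0.14), with 0.54 in tumor 1 and 0.06 in tumor 2. SPRY4 differed by 0.21 ± 0.10 (edgeR adjusted p = 0.20), again mainly in tumor 1, with 0.36 against 0.04. SPRED1, which brings neurofibromin to the membrane to switch RAS off, differed by -0.16 ± 0.10 (edgeR adjusted p = 0.31). In CPM, SPRY2 lay at 22.5 against 16.8 in tumor 1 and 27.9 against 28.6 in tumor 2, where the log2 value has the other sign because it was scaled by TMM (trimmed mean of M values) and not by total UMIs. Between the 10% of spots with the highest score and the 10% with the lowest, SPRY2 (0.74) and SPRY4 (0.70) were called as higher, together with PHLDA1 (0.31), which made 6 of the 10 members, in a fit that called 8.21% of 12367 genes as higher.

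The ERK-output genes outside the phosphatases and Sprouty genes lay near 0 or below it. PHLDA1, a pleckstrin-homology-like protein that responds to growth factor signalling, differed by 0.12 ± 0.09 on the log2 scale (edgeR adjusted p = 0.38), with 0.26 and -0.02 in the 2 tumors. ETV4 differed by -0.20 ± 0.11 (edgeR adjusted p = 0.22), with -0.02 and -0.41. ETV5 differed by -0.20 ± 0.09 (edgeR adjusted p = 0.18), with -0.21 and -0.19, so that both sections gave nearly the same value on the low side. With scaling by library size alone, ETV4 and ETV5 were called as lower at -0.31 each, in a fit that called 15.4% of genes as lower and whose median over all genes lay at -0.11.

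Of the 10 members 3 were thus called as higher, where 7.71% of the genes tested were, and 0 as lower, where 5.99% of genes were; in either direction, 13.7% of genes were called. All 10 passed the filter on low counts. The count as higher became 5 without the spots of few UMIs, which added SPRY2 (0.46) and SPRY4 (0.31), while the share over all genes went from 7.71% to 12%. It became 2 where the DUSP6 call was lost. The members' median log2 difference was 0.17, against 0.00 for all genes tested. Of the genes called, 1096 were higher and 852 lower with TMM, and 795 and 2191 with library size alone. DUSP1 exceeded the median of the other 9 members by 0.86 on the log2 scale in tumor 1 and by 1.70 in tumor 2. That gap between genes was not tested, since 2 pairs allow no two-sided exact p below 0.5.

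**Figure D1:**
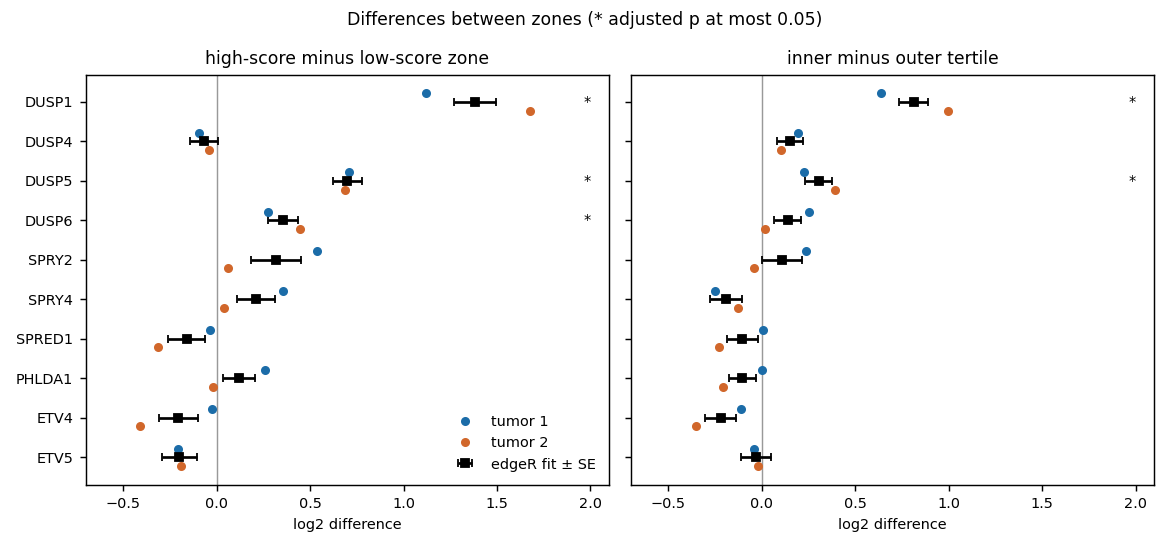
Log2 differences of the 10 members between the high-score and low-score zones (left) and between the inner and outer tertiles of depth (right). Squares with bars are the edgeR fit ± SE over 2 tumors, circles the value of each tumor and asterisks an adjusted p of at most 0.05; DUSP1 lies far to the right of the other members in both panels, at 1.38 and 0.81.

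Several measures of the tissue differed between the zones as well. In tumor 2 the low-score zone was 53.5% area of few UMIs, against 8.03% of the high-score zone; in tumor 1 the shares were 10.3% and 15.5%. Marker genes of adipocytes, skeletal muscle, red blood cells, endothelium, fibroblasts, and macrophages with granulocytes together took 0.148% of the UMIs of the high-score zone of tumor 1 and 0.118% of those of its low-score zone, but 0.112% and 0.302% for tumor 2. The muscle list summed to 24.1 and 851 CPM in these zones of tumor 2 and to 13.9 and 11.8 CPM in tumor 1; over the whole sections LEP was at 0 in both tumors, CLDN5 at 0 in tumor 2 and S100A8 at 0 in tumor 1. Without the area of few UMIs the DUSP1 difference was 1.54, and without the 10% of spots richest in those markers it was 1.43. Some of the lists leaned on 1 gene. Over tumor 1, CD68 gave 177 of the 206 CPM of the macrophage and granulocyte list. EGFL7 gave 26.7 of the 30.8 CPM of the endothelial list, while PTPRC lay at 0.20 CPM and PECAM1 at 0.85 CPM. The summed share is therefore a rough measure of other cells. Counting also used the human build hg38 while the labels name no host, so how far RNA of host cells was counted is not known.

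Along the score, DUSP1 was higher at each level within each tumor, though hardly so between the lowest levels of tumor 2. DUSP5 was graded mainly over the upper levels, and DUSP6 stood apart only at the top. The spots of each tumor were divided into 5 levels of equal size from the lowest to the highest score. In tumor 1 DUSP1 stood at 125, 142, 166, 190 and 265 CPM from level 1 to level 5. Tumor 2 gave 87.7, 89.7, 141, 190 and 275 CPM. Each level was above the one before in both tumors, which held for DUSP1 alone among the 10 members. Over the 2 tumors, levels 1 and 2, and levels 2 and 3, overlapped, while level 4 (190 ± 0.663 CPM, SD, n = 2) lay above level 3 (153 ± 17.1) and level 5 (270.0 ± 6.42) above level 4.

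DUSP5 was level over the lower part of the score and higher above it, with 88.7, 92.9, 95.2, 110 and 139 CPM in tumor 1. Tumor 2 gave 97.8, 85.4, 99.3, 110 and 144 CPM. Levels 1 to 3 were not separated, and levels 4 and 5 lay above them in both tumors. DUSP6 gave 162, 160, 161, 163 and 187 CPM in tumor 1, and 139, 146, 152, 146 and 181 CPM in tumor 2. The first 4 levels overlapped between neighbours and only level 5, at 184 ± 4.10 CPM (SD, n = 2), stood apart.

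The 4 members DUSP1, DUSP5, DUSP6 and SPRY2 were highest at level 5 in both sections. DUSP4, SPRED1, ETV4 and ETV5 were lower at level 5 than at level 1 in both; ETV5 went from 42.5 to 31.9 CPM in tumor 1 and from 53.8 to 41.1 CPM in tumor 2. ETV4 went from 63.2 to 43.3 CPM in tumor 2 and only from 47.8 to 44.2 CPM in tumor 1. SPRY4 and PHLDA1 ended above their first level in tumor 1 and below it in tumor 2, where their lowest values came at level 3 and level 4. Levels of 1 section are not replicates, so these gradients carry no test. They are also scaled by total UMIs and not by TMM. With total UMIs, the median log2 difference of all genes between the high-score and low-score zones lay at -0.11. With TMM, DUSP4 differed between these zones by -0.09 and -0.04 in tumors 1 and 2, and SPRED1 by -0.03 and -0.31. ETV4 differed by -0.02 and -0.41, and ETV5 by -0.21 and -0.19.

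**Figure D2:**
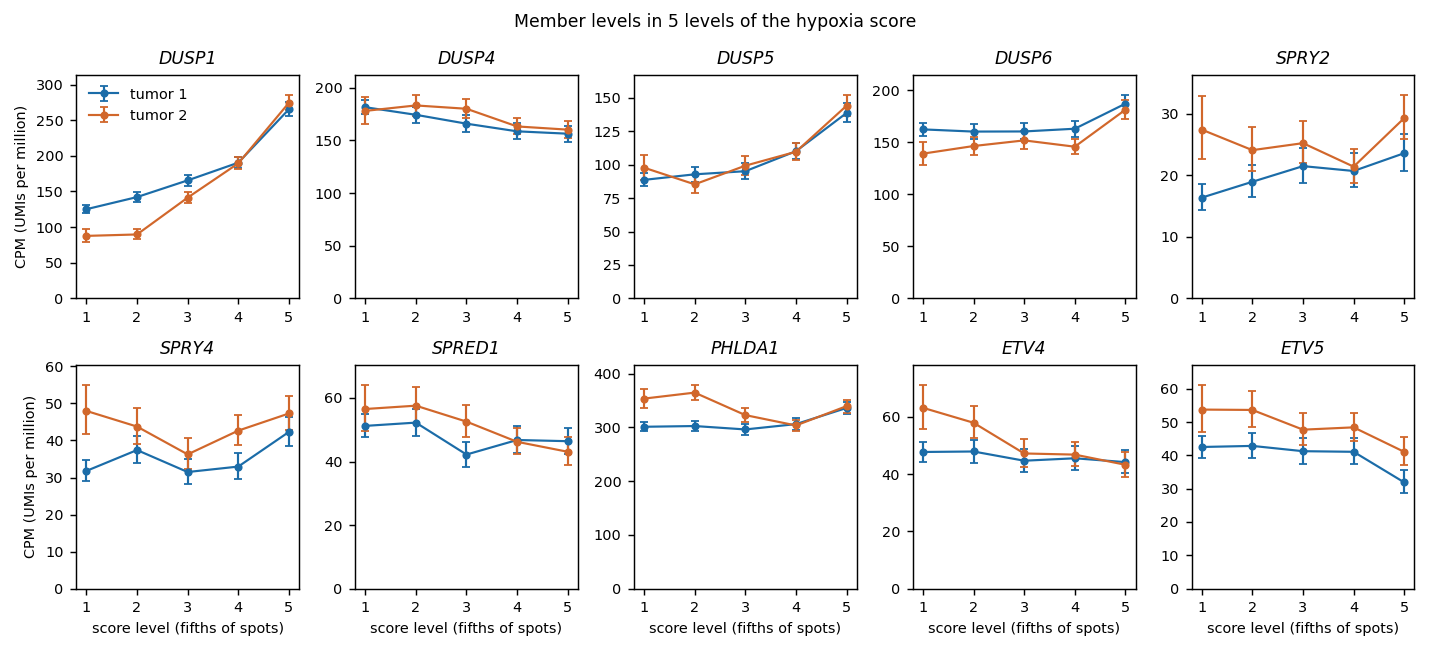
Level of each member (CPM, from 0) in 5 equal-sized groups of spots from the lowest (1) to the highest (5) hypoxia score; lines are the 2 tumors and bars exact 95% Poisson intervals, which cover counting error only. DUSP1 climbs from 125 to 265 CPM in tumor 1 and from 87.7 to 275 CPM in tumor 2, whereas DUSP6 is flat until level 5 and ETV5 ends below its start.

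The same order appeared with distance from the high-score zone. DUSP1 had 253 CPM inside that zone of tumor 1, then 178 at 1 step between adjacent spots, 162 at 2 steps, 141 at 3 to 4 steps and 127 at 5 or more. In tumor 2 it had 262, 185, 154, 111 and 82.7 CPM over the same bands. DUSP1 was lower in each band further out in both tumors, already at 1 step outside the zone. DUSP6 went from 181 to 162 CPM at 1 step in tumor 1 and lay between 161 and 164 CPM beyond it. In tumor 2 DUSP6 went from 177 to 149 CPM at 1 step and lay between 141 and 147 CPM beyond. The score set these bands, so they restate the gradient in space and are no separate support for it.

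**Figure D3:**
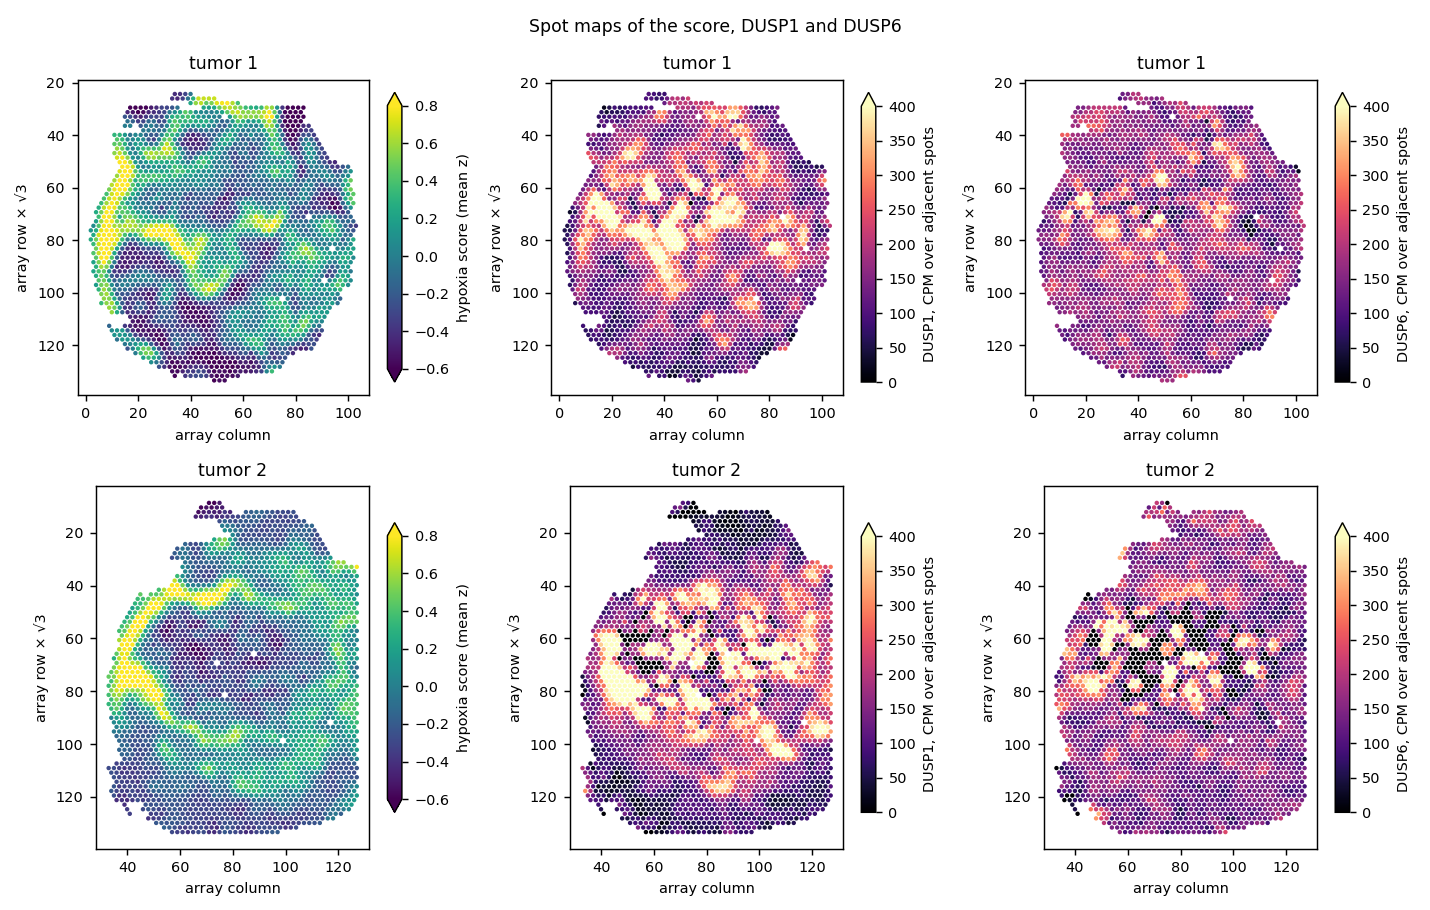
Maps of both sections (array column against array row times the square root of 3), 1 point per spot, coloured by the hypoxia score (mean standardised value, left), DUSP1 (middle) and DUSP6 (right), both in CPM over the spot and its adjacent spots on a shared scale from 0. DUSP1 forms bright patches along high-score bands and toward the inside of each section; DUSP6 is more even, and in the inner area of few UMIs of tumor 2 both maps are grainy because few molecules were counted.

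Depth was measured as steps between adjacent spots from the nearest edge of the tissue, with no gene used, and the inner tertile was set against the outer one. DUSP1 and DUSP5 were higher inside, by 1.75-fold and 1.23-fold, and none of the other 8 members passed the test. DUSP1 had 215 CPM inside and 138 outside in tumor 1. Tumor 2 had 231 and 118 CPM. Both inner values lay above both outer values, and the log2 difference was 0.81 ± 0.08 (SE, n = 2; edgeR adjusted p = 1.9e-06), with 0.64 and 0.99 in the 2 tumors.

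For DUSP5, tumor 1 gave 113 against 95.9 CPM and tumor 2 gave 123 against 95.3 CPM. Its log2 difference was 0.30 ± 0.07 (SE, n = 2; edgeR adjusted p = 0.016). The DUSP5 call was lost with DESeq2 (adjusted p = 0.50), without the tumor block (0.25), with library size alone (0.058) and in spots thinned to 1149 UMIs each, where the difference was 0.01. DUSP6 differed by 0.14 ± 0.07 (edgeR adjusted p = 0.32), with 188 against 157 CPM in tumor 1 and 155 against 156 in tumor 2. DUSP4 differed by 0.15 ± 0.07 (edgeR adjusted p = 0.24) and SPRY2 by 0.11 ± 0.11 (edgeR adjusted p = 0.65). In CPM both inner values lay above both outer values for DUSP4 and DUSP5 too, and below them for ETV4. Neither DUSP4 nor ETV4 was called, and how many of all genes separate in this way by depth was not counted.

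The inhibitors and transcription factors that remained lay on the other side of 0. SPRY4 differed by -0.19 ± 0.09 (edgeR adjusted p = 0.22) and ETV4 by -0.22 ± 0.08 (edgeR adjusted p = 0.14), each with the same sign in both tumors. SPRED1 and PHLDA1 each gave -0.10, with values near 0 in tumor 1 and -0.23 and -0.21 in tumor 2. ETV5 gave -0.03 ± 0.08 (edgeR adjusted p = 0.89). ETV4 was called as lower (-0.23), and DUSP6 as higher (0.20), where the edge of the capture frame was counted as border.

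With 2 of 10 members called as higher, the background was 2.3% of 14758 genes; 0 members were called as lower, where 3.36% of genes were, and 5.66% of genes were called in either direction. The members' median was 0.04 and that of all genes 0.00. DUSP1 exceeded the median of the other 9 members by 0.63 in tumor 1 and by 1.03 in tumor 2. The inner tertile was 40.6% and 55.2% area of few UMIs, the outer one 6.31% and 10.4%. Other-cell markers took 0.0866% and 0.0702% of UMIs inside and 0.176% and 0.258% outside. The DUSP1 difference was 0.78 without the area of few UMIs and 0.69 without the spots richest in those markers.

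Over 5 depth levels from border to centre, DUSP1 stood at 131, 156, 181, 192 and 237 CPM in tumor 1. The levels of tumor 2 were 106, 148, 190, 224 and 230 CPM. Here too DUSP1 was the member, and the only 1 of 10, in which each level was above the one before in both tumors, and no neighbouring levels overlapped over the 2 tumors. DUSP6 reached 199 CPM at the deepest level of tumor 1, from 158 CPM at the border, but in tumor 2 stayed between 149 and 157 CPM. In the area of few UMIs DUSP1 had 250 and 259 CPM in tumors 1 and 2, against 169 and 166 CPM in the rest of the sections.

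**Figure D4:**
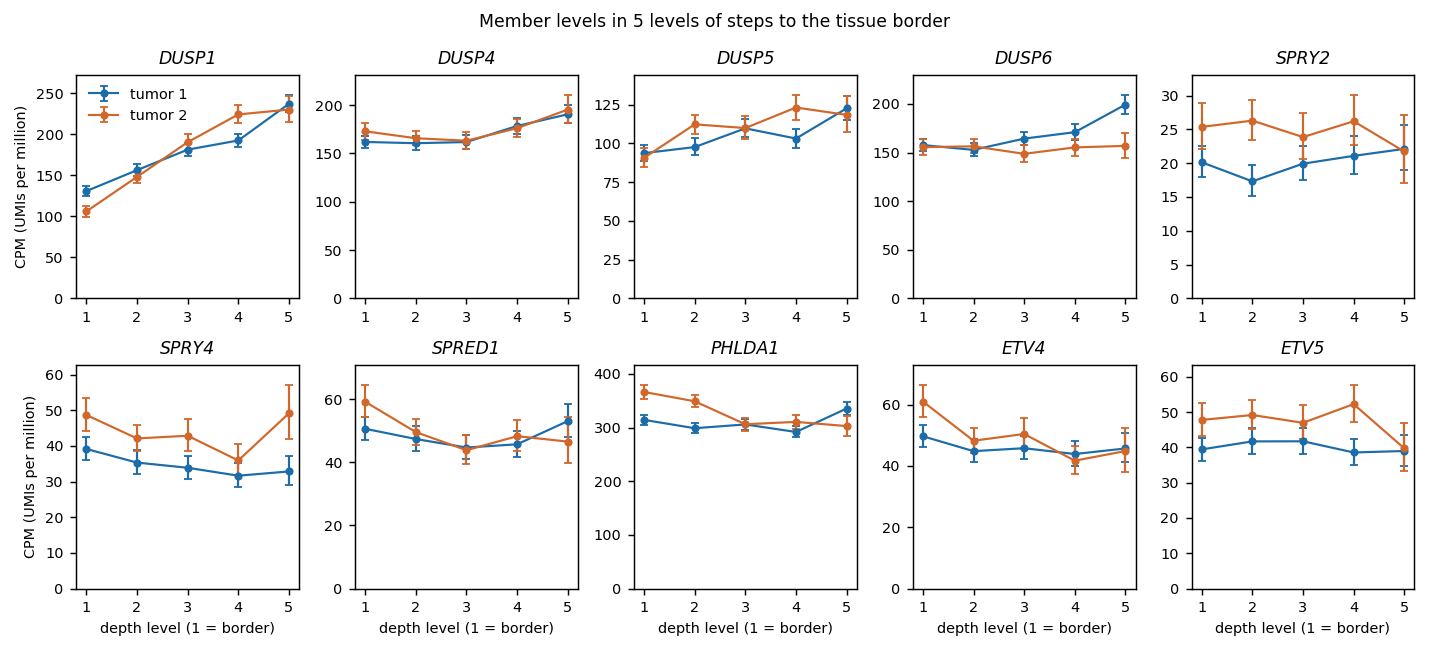
Level of each member (CPM, from 0) in 5 depth levels from the tissue border (1) to the centre (5); lines are the 2 tumors and bars exact 95% Poisson intervals for counting error. DUSP1 goes from 131 to 237 CPM in tumor 1 and from 106 to 230 CPM in tumor 2, while ETV4 goes from 49.7 to 45.7 CPM and from 61.0 to 44.9 CPM.

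Score and depth were nearly unrelated over spots, with Pearson r of 0.01 over 2536 spots of tumor 1 and -0.09 over 2841 spots of tumor 2, a description since spots share a section. The DUSP1 gradients with score and with depth could therefore be laid over each other, by dividing each tumor at its median score and its median depth. The score was less free of the number of UMIs. Its Pearson r with log10 of the UMIs per spot was -0.10 in tumor 1 and 0.37 in tumor 2. In tumor 1 DUSP1 had 254 CPM in inner spots above the median score, 189 in outer spots above it, 166 in inner spots below it and 115 in outer spots below it. In tumor 2 the values were 229, 197, 179 and 83.0 CPM. Both sections gave the same order of the 4 areas, with the outer low-score area lowest.

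Among spots under the median score, DUSP1 was higher inside than outside by 0.78 ± 0.10 on the log2 scale (SE, n = 2; edgeR adjusted p = 0.0013), with 0.52 and 1.12 in the 2 tumors; of 14650 genes, 0.471% were called there, 0.225% as higher and 0.246% as lower. Above the median score the difference was 0.32 ± 0.09 (SE, n = 2; edgeR adjusted p = 0.12), with 0.44 and 0.20, and 1.06% of genes were called, 0.184% as higher and 0.874% as lower. No other member passed in either part. The difference between these depth differences was -0.46 ± 0.14 (SE, n = 2) with an unadjusted p of 0.0034, and it failed the correction over all genes (edgeR adjusted p = 1.0).

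That interaction was unequal between the tumors, -0.09 in tumor 1 and -0.92 in tumor 2, and the inner low-score spots of tumor 2 were 86.0% area of few UMIs. It was -0.34 without that area. With all genes of at least 1 UMI kept in the fit, edgeR called it (adjusted p = 0.0026). Of 14650 genes, 0.00683%, a single gene, had a called interaction (SAA1, -1.90, named after its value was seen); 479 had an unadjusted p under 0.05, among them 1 of the 10 members, and DESeq2 called 0. For the other 9 members the interaction lay between -0.15 and 0.13.

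**Figure D5:**
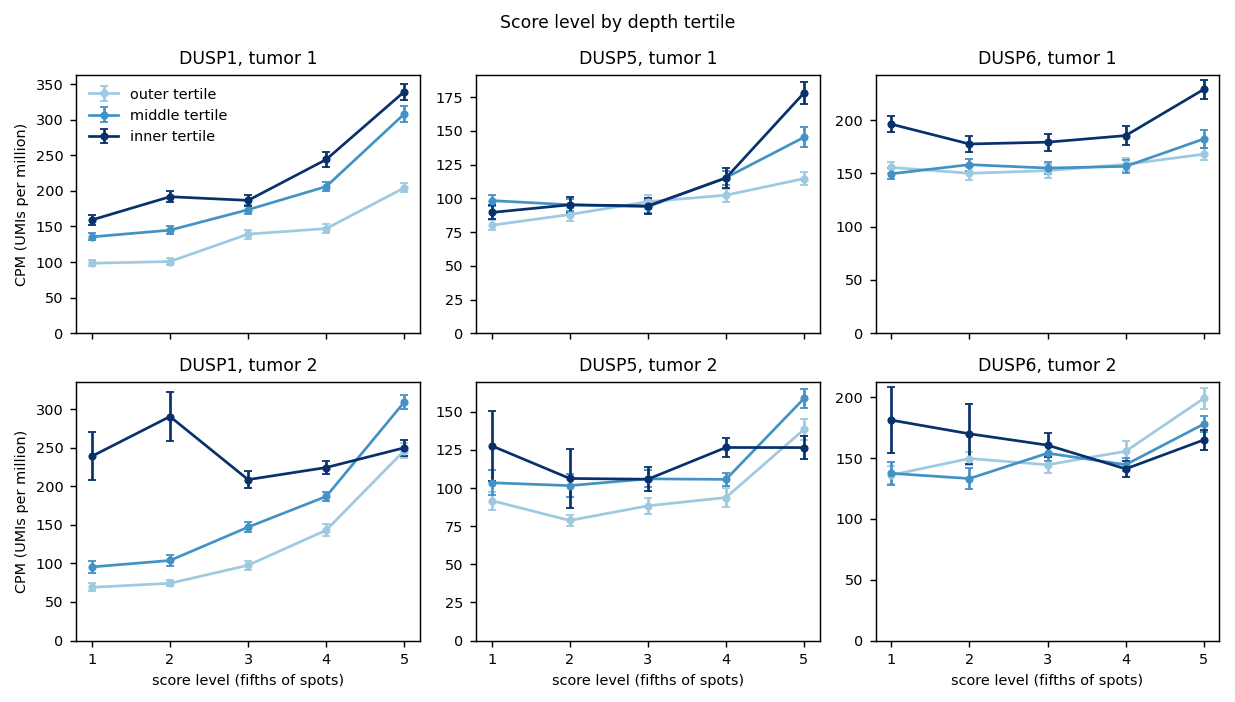
DUSP1, DUSP5 and DUSP6 (CPM, from 0) by score level (1 lowest, 5 highest) in the outer, middle and inner tertile of depth, for each tumor; bars are 1 Poisson standard deviation. In tumor 1 each DUSP1 line ends well above its start and the lines keep the order of depth; in tumor 2 the inner line starts at 239 CPM on 58 UMIs in the lowest score level and does not climb with the score.

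In finer bins, DUSP1 spanned 98.4 CPM in outer spots of the lowest score level to 339 CPM in inner spots of the highest score level of tumor 1. In the outer tertile of tumor 2 it went from 69.0 CPM at the lowest score level to 246 CPM at the highest. The inner tertile of tumor 2 was the exception, with 239 CPM at the lowest and 250 CPM at the highest score level, and the 2 lowest levels there rested on 58 and 82 UMIs.

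Spots near each other had like levels of DUSP1 more than of the other members: Moran I, which is 0 for no spatial order, was 0.20 in tumor 1 and 0.19 in tumor 2, while the others lay between 0.01 and 0.15. After averaging over adjacent spots, the Pearson r of DUSP1 with the score was 0.53 over 2536 spots and 0.56 over 2841 spots. With DUSP5 it was 0.37 and 0.36, and 0.50 and 0.48 without the area of few UMIs. With DUSP6 it was 0.13 and 0.14, and with ETV4 -0.20 and -0.07, which became -0.19 and -0.29 without that area. These coefficients share library, depth and neighbours between spots. With DUSP1 taken at single spots they were lower in size, 0.31 and 0.32 with the score, which was itself averaged over adjacent spots. Between DUSP1 and any member, both at single spots, r was at most 0.17.

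Over 15 bins per tumor (5 score levels by 3 depth tertiles), DUSP1 ran with DUSP5 (r of 0.88 and 0.82) and DUSP6 (0.75 and 0.73) and opposite to ETV4 (-0.70 and -0.79). In tumor 2, ETV4 had only 7 UMIs in the inner bin of score level 1 and 7 in that of level 2. For other members the tumors differed more, as for SPRY2 (0.76 and 0.27), ETV5 (-0.73 and -0.35) and PHLDA1 (0.51 and -0.53). Outside the members and the score genes, the genes most like DUSP1 by the lower of both tumors' r were CITED2, a transcriptional coregulator that competes with HIF-1α for p300, with 0.95, and GAS5, a non-coding host of small nucleolar RNAs, also with 0.95. RPL12, a ribosomal protein, PLIN2, a lipid droplet coat protein, and EEF1A1, a translation elongation factor, followed with 0.94 each. The genes most like DUSP6 were TMEM123 (0.75), NR2F2 (0.74), WDR45B (0.74), PLAC8 (0.73) and ZCCHC7 (0.73). None of these 5 was among the 5 most like DUSP1. With 6519 genes compared, such short lists would seldom share a gene, so this does not set DUSP1 and DUSP6 apart.

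The wider pathway was read from lists of its parts, beside the high-score against low-score zone, where 7.71% of all genes were called as higher and 5.99% as lower. Of 15 other feedback regulators tested, 4 were higher and 0 lower, with a median of 0.18. They include DUSP8, a phosphatase of the stress kinases (1.61 ± 0.45, edgeR adjusted p = 0.032), and ERRFI1, an inhibitor of the EGF receptor (1.60 ± 0.08, edgeR adjusted p = 1.0e-07). The other two, named after their values were seen, are DUSP10 (1.15), also a phosphatase of p38 and JNK, and DUSP3 (0.53). Of 12 other ERK-output genes 3 were higher and 1 lower, with a median of 0.13; VGF gave 0.56 and EGR1 0.36. Named after their values were seen, MYC was the other higher gene (0.27) and the cyclin CCND1 the lower one (-0.34 ± 0.08, edgeR adjusted p = 0.012). Of 17 cascade genes 2 were higher, the kinase MAP2K1 (0.49) and the receptor EGFR (0.43), and 0 lower, with a median of 0.06, so that this count lay near the share over all genes.

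Stress-linked lists were read the same way, since DUSP1 acts on p38 and JNK. Of 11 stress kinase genes 1 was higher, MAPK13, a p38 kinase (0.37), and 0 lower, with a median of -0.18, again near the share over all genes. Of 19 immediate early genes 11 were higher and 1 lower, with a median of 0.51, led by FOS (1.27 ± 0.16) and KLF4 (0.95 ± 0.09); the lower gene was KLF2 (-0.54). Of 7 glucocorticoid targets 3 were higher and 1 lower, with a median of 0.21; ERRFI1, CEBPD (0.63) and PER1 (0.61) were higher and FKBP5, a co-chaperone of the receptor, lower (-0.68 ± 0.11). Of 12 heat shock genes 7 were higher and 1 lower, with a median of 0.49, led by HSPA6 (3.41 ± 0.14) and HSPA1A (2.21 ± 0.14); the lower gene was HSPA8 (-0.40). KLF2, CEBPD, PER1 and HSPA8 were named after their values were seen. All these are log2 differences ± SE with an edgeR adjusted p under the threshold for each gene named.

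Inside against outside, where 2.3% of all genes were called as higher and 3.36% as lower, 1 of the 15 feedback regulators was higher (ERRFI1, 0.43) and 0 lower, with a median of 0.05. Of the 12 ERK-output genes 0 were higher and 3 lower, with a median of -0.04: EPHA4 (-0.47) and HMGA2 (-0.34), with PLAUR (-0.34) named after its value was seen. No cascade or stress kinase gene passed, with medians of 0.01 and 0.02. Of 19 immediate early genes 4 were higher, led by NR4A1 (0.96) and ATF3 (0.61), with FOS (0.57) and CCN1 (0.34) named after their values were seen. So were 2 of 7 glucocorticoid targets, CEBPD (0.54) and ERRFI1, and 7 of 12 heat shock genes, led by HSPA6 (1.57) and HSPA1A (1.25); none of these 3 lists held a lower gene, and their medians were 0.11, 0.14 and 0.48. After averaging over adjacent spots, the Pearson r of DUSP1 with HSPA1A, a heat-inducible chaperone, was 0.33 in tumor 1 and 0.48 in tumor 2. The 12 heat shock genes summed to 5622 CPM in the high-score spots and 5813 CPM in the low-score spots of tumor 1, against 7422 and 5990 CPM for tumor 2. Inside and outside they summed to 5960 and 5460 CPM in tumor 1 and to 7611 and 5725 CPM in tumor 2. The part of these transcripts in the DUSP1 differences was not tested.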

How the data were processed

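Visium libraries of 2 tumor sections were used. Each spot's UMI counts and array position were deposited; Space Ranger 1.3.0 is the counter per the file headers, and the submitters' processing notes name the build hg38. Counts of spots over tissue with at least 500 UMIs were used as deposited and summed per tumor and zone, as neighbouring spots share 1 section. The score was the mean z of log2 of 1 plus UMIs per 10000 over 28 genes, averaged over adjacent spots. Steps to the border started from off-tissue areas with at least 5 positions, and the edge of the frame was no border. The sums were tested with edgeR 4.0.16 (TMM, filterByExpr, quasi-likelihood F test, tumor as block because both zones come from the same section), which leaves 1 residual degree of freedom for the zone comparisons and 3 for the interaction, with 11.2, 18.1 and 15.5 prior degrees of freedom. The score genes were not tested where the score made the zones. Each tumor's own log2 values have a prior count of 2. The R version was 4.3.3, and DESeq2 1.42.0, other scalings, filters, zones, score genes, borders and thinned spots were alternatives. The fit was also run on simulated counts, with the same change of a gene in both tumors. That run cannot show how a spread between tumors bears on the p-values, and its outcome is not reported here.

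The members, lists and zones were chosen with earlier results of these data known. All 10 members are named; of each pathway list, the 2 called genes with the largest absolute log2 difference per comparison, and the 5 genes most like DUSP1 and DUSP6 with at least 20 CPM in both tumors. UMI intervals cover counting error only. Motifs and promoter sequences came from RefSeq tables.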

Additional observations from a re-analysis of the deposited data

How the results depend on the processing

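DUSP1 kept its call in every fit with a test, over 15 alternatives for the score zones (1.12 to 1.68 on the log2 scale) and 13 for depth (0.64 to 1.01). The lowest and highest score values and the lowest depth value are those of 1 tumor alone, which carry no test. Between the score zones, the count of members called higher, 3 in the fit reported, was 2 with no replicate block, DESeq2 and thinned spots, which each lost DUSP6. It was 4 with at least 2000 UMIs per spot and without spots rich in other-cell markers, which each added SPRY2. The score from even places of its list also gave 4 (SPRY4). All genes called higher rose as well in the fits with 4, from 1096 of 14223 in the fit reported. They were 1454 of 13999 with at least 2000 UMIs, 1933 of 13948 without spots rich in other-cell markers and 1374 of 14189 with even places. The count of members was 5 without the area of few UMIs and 6 with 10% of spots per zone. The count called lower was 2 with library size alone (ETV4, ETV5) and 1 without spots rich in other-cell markers (SPRED1, -0.27). Genes called higher and lower between the score zones, 1096 and 852 in the fit reported, were 401 and 209 with no replicate block, 307 and 82 with DESeq2, 222 and 44 in thinned spots, 1933 and 1630 without spots rich in other-cell markers, and 1648 and 1374 without the area of few UMIs; 2191 were lower with library size alone. For depth, 1 member was called higher with library size alone, no replicate block, DESeq2 and thinned spots, and 1 lower with the frame edge as border. Genes called higher and lower by depth, 340 and 496, were 127 and 263 with library size alone, 7 and 34 with no replicate block, 23 and 84 with DESeq2, 562 and 770 with at least 2000 UMIs per spot, 599 and 796 with the frame edge as border and 60 and 80 in thinned spots; 762 were lower with no filterByExpr and 201 higher without the area of few UMIs. For the interaction, no filterByExpr gave 8 genes higher and 32 lower, 1 of them a member; 3 were lower with at least 2000 UMIs, 9 without the area of few UMIs, and 0 with no replicate block, DESeq2 or without spots rich in other-cell markers.

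Among fits of both tumors, the sign turned only for values that did not pass the test in either fit. In thinned spots DUSP4 (0.13) and ETV5 (0.043) did so between the score zones. For depth ETV5 did so in thinned spots (0.32), without the area of few UMIs (0.0068) and with the frame edge as border (0.0092). In the interaction these were ETV5 with no replicate block (0.0082), DUSP5 (0.080) and SPRY4 (0.010) with the frame edge, DUSP6 (0.14), SPRY2 (0.63), SPRY4 (0.091) and PHLDA1 (-0.013) in thinned spots, and SPRY2 (0.049) and SPRY4 (0.011) without spots rich in other-cell markers. SPRY2 and SPRY4 are the least counted members, with 1000 to 2050 UMIs per section. The cause of these changes was not tested. With 2 tumors, leaving out either leaves no residual degree of freedom.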
